A study of Mus musculus with 18 samples.

Results

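In all, 38 mouse orthologues of genes linked to human inflammatory bowel disease were followed across 3 subsets of dendritic-type cells sorted from the colon lamina propria, with and without dextran sulfate sodium (DSS). The members were found by gene symbol among probe sets that carry exactly 1 symbol, and where a gene had several such probe sets, the brightest on average across the 18 arrays was used. All 38 had a probe set among the 19937 genes named in this way, and all 38 were among the 14003 genes tested, which lay above a level of 3.51 on the log2 scale in at least 3 arrays. Each sample was 1 Affymetrix expression array, and the deposited values are log2 expression after robust multi-array averaging (RMA).

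The groups were the CD103+CD11b-, the CD103+CD11b+ and the CD103-CD11b+ subset of mice given 2% DSS, and the same 3 subsets of untreated mice, with 3 arrays in each of the 6 groups. DSS is a detergent-like polymer that damages the colon epithelium when given to mice and causes colitis. All mice were BALB/c and 8 weeks old, and all cells came from a collagenase digest of colon and from an MHC+CD11chigh gate. CD103, an integrin chain, and CD11b, another integrin chain, then separated the subsets. The titles of the DSS arrays name experiments 4 to 6. The arrays called untreated here are those of experiments 1 to 3, whose titles name no DSS. Every experiment thus held 1 condition, and DSS and the experiments cannot be told apart. How many mice were used per array, and whether arrays hold separate animals, is not stated in the labels. The p-values below therefore reflect only how these arrays vary, which may be technical variation. Precision is limited by the number of arrays: over the members, a log2 difference of 1 group from another had a median standard error of 0.16.

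Many human risk genes of inflammatory bowel disease act where immune cells meet gut microbes. They include sensors of bacterial cell wall, the autophagy machinery that clears engulfed bacteria, the interleukin 10 pathway that restrains inflammation, the JAK and STAT signalling chain below cytokine receptors, and transcription factors of leukocytes. Dendritic cells sample the gut lumen and carry antigen to T cells. CD103+CD11b- cells are usually counted as conventional type 1 dendritic cells (cDC1), specialised in cross-presentation, while the CD11b+ fractions hold type 2 cells (cDC2) and, in the CD103- fraction, cells with macrophage genes.

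The marker sums of the subsets followed the gates, in part by construction. The cDC1 list holds Itgae, the gene of CD103, and the cDC2 list holds Itgam, the gene of CD11b. Sums without these sort genes were not made. The summed cDC1 level (10 genes, log2 of the sum of unlogged values) lay at 12.36 to 12.46 in DSS CD103+CD11b-, 11.56 to 11.68 in DSS CD103+CD11b+ and at most 11.19 in DSS CD103-CD11b+ arrays. The same sum was 12.28 to 12.36, 11.46 to 11.60 and 10.61 to 10.79 in the untreated CD103+CD11b-, CD103+CD11b+ and CD103-CD11b+ arrays. The cDC2 sum (8 genes, of which Clec4a4 lay below the filter level) was at most 9.05 in DSS CD103+CD11b- arrays and at least 10.64 in the other DSS arrays, and at most 8.70 in untreated CD103+CD11b- arrays and at least 10.90 in the other untreated ones. The macrophage sum (10 genes) was likewise highest in CD103-CD11b+ cells, at 11.87 to 12.19 with DSS and 12.02 to 12.72 untreated. Epithelial genes (14 genes) were read in every group, with sums of 12.13 to 12.67 in DSS and 12.41 to 13.13 in untreated arrays. The untreated CD103-CD11b+ array of experiment 2 stood apart for several members. Its macrophage sum was 12.72, against 12.02 and 12.04 in the other arrays of that group, and results that rest on it are given with and without it. In bulk samples such as these, fewer cells of a type and less RNA per cell cannot be told apart.

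Risk gene orthologues differed mostly between CD103+CD11b- cells and the CD11b+ subsets. Lrrk2, Inpp5d and Tyk2 were higher in CD103+CD11b- cells than in both other subsets, with and without DSS, and Il2ra was lower there than in both. Prdm1 was lower in the CD103+CD11b- subset than in the CD103-CD11b+ subset in both conditions. In total 18 of the 38 members (47.4%) differed in at least 1 of the 6 subset comparisons, against 16.3% of all genes tested (limma, Benjamini-Hochberg adjusted p under 0.05 over all genes, here called). Of these 18, 7 were called both with and without DSS, namely Lrrk2, Il2ra, Jak2, Tyk2, Ptpn22, Prdm1 and Inpp5d. Another 4 were called in DSS arrays alone (Nod2, Atg16l1, Il10ra and Socs1) and 7 in untreated arrays alone (Il10, Il6st, Stat3, Sp140, Lsp1, Cul2 and Dap). No test of the difference between the conditions called any of them. Shares of all genes for this split by condition were not computed. With the experiment as a block Il10 and Lsp1 were called in both conditions (adjusted p = 0.031 and 0.047 with DSS), and Socs1 and Stat3 were no longer called (adjusted p = 0.057 for each).

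By comparison, CD103+CD11b- against CD103-CD11b+ cells gave 10 called members with DSS (8 higher, 2 lower), beside 8.53% of all genes, 4.19% higher and 4.34% lower. It gave 13 untreated (9 higher, 4 lower), beside 10.3% of all genes, 5.01% higher and 5.32% lower. CD103+CD11b- against CD103+CD11b+ cells gave 7 with DSS (6 higher, 1 lower), beside 5.96% of all genes, 3.56% higher and 2.39% lower. It gave 9 untreated (5 higher, 4 lower), beside 6.86% of all genes, 2.76% higher and 4.09% lower. The CD11b+ subsets differed least: CD103+CD11b+ against CD103-CD11b+ cells gave 1 member with DSS, higher, beside 1.58% of all genes (0.436% higher, 1.14% lower). It gave 4 untreated, all higher, beside 4.11% of all genes (2.36% higher, 1.75% lower). The median size of the members' log2 difference, without sign, was 0.24 with DSS and 0.31 untreated in CD103+CD11b- against CD103-CD11b+ cells, where all genes had 0.15 and 0.16. In CD103+CD11b- against CD103+CD11b+ cells it was 0.26 with DSS and 0.19 untreated, where all genes had 0.14 and 0.17. In CD103+CD11b+ against CD103-CD11b+ cells it was 0.19 with DSS and 0.20 untreated, where all genes had 0.12 and 0.16. As the members were chosen for their human genetics with earlier results of these arrays known, these shares describe the list and are not a test of it.

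**Figure D1:**
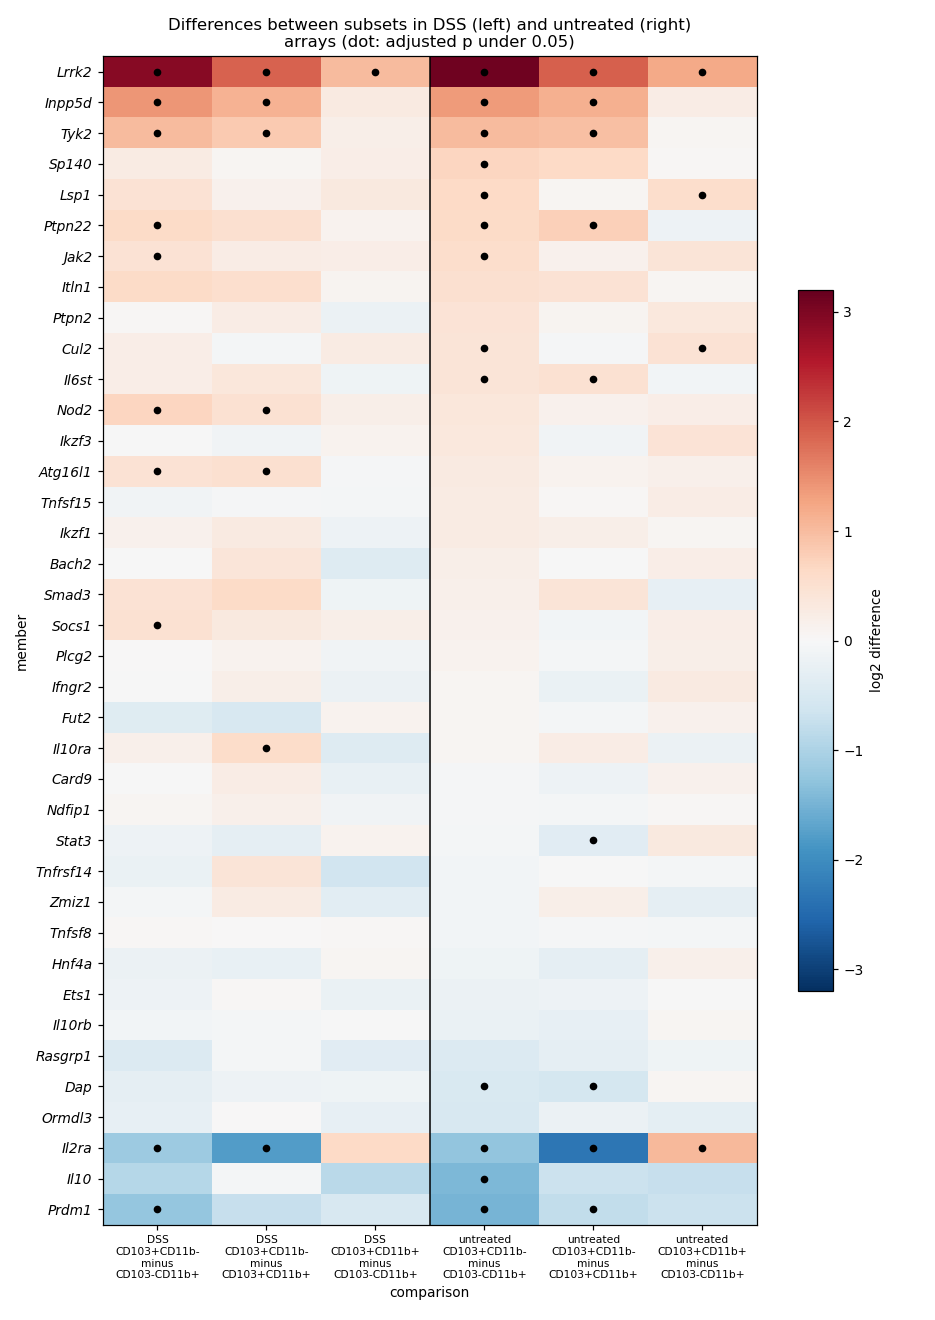
Log2 differences between subsets for the 38 members (rows) in DSS arrays (left 3 columns) and untreated arrays (right 3 columns); red is higher in the subset named first, blue is lower, and a dot marks an adjusted p under 0.05. Lrrk2 carries a dot in all 6 columns, at 2.91 and 3.11 in CD103+CD11b- against CD103-CD11b+ cells with DSS and untreated, while 20 rows carry none.

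A subset was taken as the highest for a gene where its mean exceeded both others and both differences were called. How many of all genes meet this rule, or the matching rule for the lowest subset, was not computed. The counts below therefore describe the list only. With DSS, CD103+CD11b- cells were highest for 5 members, Nod2, Atg16l1, Lrrk2, Tyk2 and Inpp5d, and 33 members had no single highest subset. With the experiment as a block these were 4, as Nod2 no longer met the rule. Without the DSS CD103+CD11b+ array of experiment 4 the count was 2, and without the DSS CD103+CD11b+ array of experiment 5, or the DSS CD103+CD11b- array of experiment 4 or 6, it was 3. In untreated mice CD103+CD11b- cells were highest for 5, Lrrk2, Il6st, Tyk2, Ptpn22 and Inpp5d, and CD103+CD11b+ cells for 1, Il2ra, with 32 members left without one. With the experiment as a block, untreated CD103+CD11b- cells were also highest for Sp140 (adjusted p = 0.012 over CD103-CD11b+ and 0.020 over CD103+CD11b+ cells). CD103-CD11b+ cells were highest for no member in either condition by this rule. They were lowest, by the same rule, for Lrrk2 with DSS, and for Lrrk2, Lsp1 and Cul2 untreated. CD103+CD11b- cells were lowest for as many members, Il2ra with DSS, and Il2ra, Prdm1 and Dap untreated. This parity did not hold with the experiment as a block. DSS CD103+CD11b- cells were then also lowest for Prdm1 (adjusted p = 0.028 below CD103+CD11b+ and 0.00039 below CD103-CD11b+ cells). Untreated CD103-CD11b+ cells were no longer lowest for Cul2 (adjusted p = 0.051 below CD103+CD11b+ cells).

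The promoters of 4 members that differed most between subsets in both conditions are shown so that the start regions of genes that were high together (Lrrk2, Inpp5d) and low together (Il2ra, Prdm1) in CD103+CD11b- cells can be read side by side. Each runs 5′ to 3′ over 250 bases before and 50 after a RefSeq start on GRCm38.p6. They lie at chr15:91672974-91673273 on the + strand for Lrrk2, chr1:87620062-87620361 on the + strand for Inpp5d, chr2:11642542-11642841 on the + strand for Il2ra and chr10:44458699-44458998 on the - strand for Prdm1. Capitals mark a match to a searched motif.
Lrrk2: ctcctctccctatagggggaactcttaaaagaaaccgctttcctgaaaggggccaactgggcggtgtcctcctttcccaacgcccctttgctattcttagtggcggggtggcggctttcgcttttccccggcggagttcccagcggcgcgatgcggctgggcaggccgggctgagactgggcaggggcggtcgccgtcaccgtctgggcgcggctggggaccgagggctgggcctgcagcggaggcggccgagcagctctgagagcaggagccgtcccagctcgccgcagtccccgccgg
Inpp5d: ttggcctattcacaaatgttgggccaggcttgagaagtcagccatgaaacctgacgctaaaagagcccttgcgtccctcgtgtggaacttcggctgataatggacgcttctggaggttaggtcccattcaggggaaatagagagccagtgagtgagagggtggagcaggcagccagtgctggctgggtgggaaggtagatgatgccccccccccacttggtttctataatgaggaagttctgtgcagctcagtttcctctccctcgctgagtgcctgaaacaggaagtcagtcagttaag
Il2ra: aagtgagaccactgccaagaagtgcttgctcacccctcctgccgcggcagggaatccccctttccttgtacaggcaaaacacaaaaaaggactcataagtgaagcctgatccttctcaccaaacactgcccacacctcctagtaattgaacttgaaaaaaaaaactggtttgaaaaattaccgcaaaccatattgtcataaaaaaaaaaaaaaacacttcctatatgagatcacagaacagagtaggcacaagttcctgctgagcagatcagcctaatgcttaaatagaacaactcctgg
Prdm1: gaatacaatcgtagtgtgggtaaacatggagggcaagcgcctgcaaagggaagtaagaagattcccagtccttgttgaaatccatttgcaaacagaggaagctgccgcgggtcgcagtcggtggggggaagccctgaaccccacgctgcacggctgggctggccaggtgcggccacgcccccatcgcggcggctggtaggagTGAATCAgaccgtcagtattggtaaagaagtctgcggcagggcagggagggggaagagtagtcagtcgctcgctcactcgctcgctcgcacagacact
Searched on both strands were the STAT motif TTCNNNGAA, the AP-1 motif TGANTCA, the interferon-response motif (GAAA, any 2 bases, GAAA) and the composite ETS and IRF motif (GGAA, any 2 bases, GAAA), of which the last 2 can overlap. Of the 38 members 27 had a window in the table, and some had several, 30 in all. The STAT motif was in 4 of the 30 (8.298% of all 32851 windows), one of them a window of Ptpn22 with the letters TTCTGGGAA. The AP-1 motif was in 1 of 30 (7.808% of all), that of Prdm1, where the letters are TGAATCA. The interferon-response motif was in 2 of 30 (3.443% of all), of Socs1 and Tnfrsf14, and the composite motif in 3 of 30 (2.715% of all), of Bach2, Il6st and Zmiz1. The windows of Lrrk2, Inpp5d and Il2ra hold none of these letters. A match is a description of the sequence and not a bound site.

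Among the sensing and autophagy genes, Lrrk2 had the widest range of all members. Lrrk2 encodes a large kinase of membrane traffic that is linked in people to Crohn's disease and to Parkinson's disease. Its log2 levels in DSS experiments 4, 5 and 6 were 9.34, 9.37 and 9.06 in CD103+CD11b-, 7.42, 7.39 and 7.29 in CD103+CD11b+, and 6.28, 6.48 and 6.30 in CD103-CD11b+ cells. In untreated experiments 1, 2 and 3 they were 9.24, 9.03 and 9.20 in CD103+CD11b-, 7.13, 7.35 and 7.28 in CD103+CD11b+, and 6.27, 5.88 and 6.01 in CD103-CD11b+ cells. The 3 subsets did not overlap in either condition and stood in the same order. The level in CD103+CD11b- cells was 7.51-fold that of CD103-CD11b+ cells with DSS (log2 difference 2.91 ± 0.13 SE, adjusted p = 1.19e-10) and 8.61-fold untreated (3.11 ± 0.13, adjusted p = 3.62e-11). Against CD103+CD11b+ cells it was 3.71-fold with DSS and 3.75-fold untreated. CD103+CD11b+ cells were in turn 2.02-fold above CD103-CD11b+ cells with DSS (adjusted p = 0.000389) and 2.30-fold untreated (adjusted p = 3.41e-05). The 6 Lrrk2 calls held in every alternative run. A second Lrrk2 probe set, dimmer on average, gave log2 differences of 2.19 with DSS and 1.66 untreated in the first of these comparisons, but 0.07 with DSS and 0.29 untreated in the last.

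Nod2, the sensor of bacterial muramyl dipeptide, was higher in CD103+CD11b- than in both other subsets with DSS. Its levels in DSS experiments 4, 5 and 6 were 6.93, 6.74 and 6.81 in CD103+CD11b-, 6.41, 6.36 and 6.21 in CD103+CD11b+, and 6.14, 6.16 and 6.10 in CD103-CD11b+ cells. In untreated experiments 1, 2 and 3 they were 6.54, 6.89 and 6.56 in CD103+CD11b-, 6.62, 6.49 and 6.44 in CD103+CD11b+, and 6.43, 5.96 and 6.49 in CD103-CD11b+ cells. The DSS groups did not overlap, whereas the untreated CD103+CD11b- and CD103+CD11b+ arrays did. The difference between CD103+CD11b- and CD103-CD11b+ cells was 0.69 ± 0.14 with DSS (adjusted p = 0.0029) and 0.37 ± 0.14 untreated (adjusted p = 0.13). Between these comparisons the change was 0.33 ± 0.20 and was not called. The difference between DSS CD103+CD11b- and DSS CD103+CD11b+ cells, 0.50 ± 0.14 (adjusted p = 0.043), was lost with the experiment as a block (adjusted p = 0.066) and without any 1 of the 6 arrays (adjusted p up to 0.17).

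Atg16l1, which directs the lipid tagging of forming autophagosomes, was also higher in DSS CD103+CD11b- cells. Its group means were 5.98 ± 0.19 in CD103+CD11b-, 5.47 ± 0.02 in CD103+CD11b+ and 5.52 ± 0.16 in CD103-CD11b+ cells with DSS (SD, n = 3 each), and 5.77 ± 0.02, 5.65 ± 0.13 and 5.48 ± 0.19 in the same order of subsets untreated. Its differences with DSS were 0.50 ± 0.13 over CD103+CD11b+ (adjusted p = 0.027) and 0.46 ± 0.13 over CD103-CD11b+ cells (adjusted p = 0.036). Leaving out 1 array ended the first call in 5 of 6 cases and the second in 4 of 6. The lowest values came without the DSS CD103+CD11b- array of experiment 4, at 0.40 (adjusted p = 0.16) and 0.35 (adjusted p = 0.20). Card9, the adaptor below fungal lectin receptors, was called in no subset comparison. Its arrays ran from 4.26 to 5.26, and the DSS CD103+CD11b+ array of experiment 6 held the highest value. Without that array the difference between DSS CD103+CD11b- and DSS CD103+CD11b+ cells was 0.55 (adjusted p = 0.026), against 0.23 (adjusted p = 0.70) with it.

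The lists of NOD2 and CARD9 partners and of autophagy genes, which hold no member, were read beside these members. Of 16 tested partners of NOD2 and CARD9 signalling, 4 were lower and 0 higher in the CD103+CD11b- than in the CD103-CD11b+ subset with DSS, and 3 were lower and 0 higher untreated, where 8.53% and 10.3% of all genes were called. They were lectin receptors and their kinase: Clec4n had log2 differences of -2.37 with DSS and -2.54 untreated, Clec4e of -1.59 and -2.73, and Syk of -0.61 and -0.84 in the same order. Clec7a, another lectin receptor, differed by -1.20 with DSS and was not called untreated. The list's median difference was -0.09 with DSS and -0.02 untreated, beside -0.01 and 0.01 over all genes. Of 23 tested autophagy genes, 1 was higher and 2 lower with DSS in that comparison, and 1 was higher and 0 lower untreated, with list medians of -0.11 and -0.03. Uvrag, a regulator of autophagosome maturation, was the higher one, by 1.10 with DSS and 1.03 untreated. Gabarapl1 and Map1lc3b, both in the family of proteins that coat autophagosomes, were lower with DSS, by log2 differences of -0.63 and -0.56.

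Of the cytokine and receptor genes, Il2ra changed most between subsets. It encodes the alpha chain of the interleukin 2 receptor, CD25. Il2ra read 6.86, 6.95 and 6.85 in CD103+CD11b-, 9.03, 8.60 and 8.42 in CD103+CD11b+, and 8.27, 8.24 and 7.62 in CD103-CD11b+ cells of DSS experiments 4, 5 and 6. It read 6.64, 7.04 and 6.75 in CD103+CD11b-, 8.78, 9.45 and 9.10 in CD103+CD11b+, and 8.15, 7.96 and 8.10 in CD103-CD11b+ cells of untreated experiments 1, 2 and 3. CD103+CD11b- arrays were lowest throughout, with no overlap, and CD103+CD11b+ arrays were the highest. Against CD103+CD11b+ cells, CD103+CD11b- cells were 3.47-fold lower with DSS (log2 difference -1.80 ± 0.20, adjusted p = 6.08e-06) and 4.93-fold lower untreated (-2.30 ± 0.20, adjusted p = 2.56e-07). Against CD103-CD11b+ cells they were 2.23-fold lower with DSS (adjusted p = 0.000479) and 2.39-fold lower untreated (adjusted p = 0.000166). CD103+CD11b+ cells exceeded CD103-CD11b+ cells by 0.64 ± 0.20 with DSS, which was not called (adjusted p = 0.14), and by 1.04 ± 0.20 untreated (adjusted p = 0.0040).

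The summed level of genes of T, NK and innate lymphoid cells (12 of 14 listed genes measured) was also lowest in CD103+CD11b- arrays, while most single genes of the list were not called. Their summed log2 level was 9.93 to 10.22 in CD103+CD11b-, 10.97 to 11.06 in CD103+CD11b+ and 10.87 to 11.12 in CD103-CD11b+ arrays with DSS. Untreated it was 9.96 to 10.09 in CD103+CD11b-, 10.93 to 11.04 in CD103+CD11b+ and 10.94 to 11.28 in CD103-CD11b+ arrays. Of 10 tested, 1 was lower and 0 higher in the CD103+CD11b- than in the CD103+CD11b+ subset in each condition, and 2 were lower and 0 higher than in CD103-CD11b+ cells in each. Il7r, the interleukin 7 receptor chain, had means of 8.36, 10.27 and 10.21 in the DSS and 8.56, 10.27 and 10.17 in the untreated CD103+CD11b-, CD103+CD11b+ and CD103-CD11b+ groups. It was the brightest gene of the list in every group. As unlogged values were summed, Il7r weighed most in these sums, and no sum without it was made. Cd3e, a T cell receptor chain, had 6.52, 6.89 and 6.76 in the DSS and 6.51, 6.87 and 7.11 in the untreated groups in that order. Others ran flat or the other way with DSS, such as Zap70, a T cell kinase, at 4.44, 4.27 and 4.25. Ncr1 and Klrb1c, which mark NK cells, had means below the 3.51 filter level. The part of such cells in the Il2ra result was not tested.

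Il10, the cytokine that restrains gut inflammation, was lower in the CD103+CD11b- than in the CD103-CD11b+ subset, but this rested partly on 1 array. It read 5.80, 5.24 and 6.10 in CD103+CD11b-, 5.71, 5.51 and 6.07 in CD103+CD11b+, and 6.84, 6.24 and 6.79 in CD103-CD11b+ cells of DSS experiments 4, 5 and 6. It read 4.93, 5.28 and 5.13 in CD103+CD11b-, 5.37, 6.15 and 5.92 in CD103+CD11b+, and 5.83, 7.83 and 5.97 in CD103-CD11b+ cells of untreated experiments 1, 2 and 3. The CD103+CD11b- arrays lay below all CD103-CD11b+ arrays of their own condition, and the 7.83 of experiment 2 stood far above the other untreated values. The difference was -0.91 ± 0.37 with DSS (adjusted p = 0.18; called with the experiment as a block, adjusted p = 0.031) and -1.43 ± 0.37 untreated (adjusted p = 0.017). Without the untreated CD103-CD11b+ array of experiment 2 the second was -0.79 (adjusted p = 0.072), and without the untreated CD103+CD11b- array of experiment 1 it was -1.34 (adjusted p = 0.065). It was below 0 within each of the 6 experiments, from -2.55 to -0.70. The macrophage sum moved with Il10 across the subsets and was highest in that same untreated array, and its part in the result was not tested.

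Il10ra, the ligand-binding chain of the interleukin 10 receptor, was lowest in DSS CD103+CD11b+ cells. It read 7.84, 7.74 and 7.56 in CD103+CD11b-, 6.94, 7.34 and 7.11 in CD103+CD11b+, and 7.64, 7.45 and 7.53 in CD103-CD11b+ cells of DSS experiments 4, 5 and 6. It read 7.74, 7.94 and 7.79 in CD103+CD11b-, 7.53, 7.37 and 7.82 in CD103+CD11b+, and 7.74, 7.72 and 7.83 in CD103-CD11b+ cells of untreated experiments 1, 2 and 3. DSS CD103+CD11b- exceeded DSS CD103+CD11b+ cells by 0.58 ± 0.14 without overlap (adjusted p = 0.013), and the untreated difference was 0.25 ± 0.14 (adjusted p = 0.37). Leaving out the DSS CD103+CD11b+ array of experiment 4 (0.48, adjusted p = 0.091) or 6 (0.57, adjusted p = 0.051), or the DSS CD103+CD11b- array of experiment 4 (0.52, adjusted p = 0.077), ended that call.

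Il6st, the signalling chain shared by receptors of the interleukin 6 family, was higher in untreated CD103+CD11b- cells, at 9.04 ± 0.07, than in untreated CD103+CD11b+ cells, at 8.56 ± 0.06, and untreated CD103-CD11b+ cells, at 8.64 ± 0.14 (SD, n = 3 each). The differences were 0.48 ± 0.12 (adjusted p = 0.018) and 0.40 ± 0.12 (adjusted p = 0.041), and leaving out 1 array ended them in 3 and in 5 of 6 cases, with adjusted p up to 0.076 and 0.15. With DSS the same differences were 0.37 and 0.22 and were not called. Il10rb, the second chain of the interleukin 10 receptor, and Ifngr2, a chain of the interferon gamma receptor, were called in no subset comparison. Their group means spanned 0.26 and 0.36 on the log2 scale.

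Among kinases, STAT3 and their brakes, the receptor-linked kinase Tyk2 was higher in CD103+CD11b- cells than in both other subsets. Jak2 was called higher there only against CD103-CD11b+ cells. Tyk2 read 6.70, 6.56 and 6.84 in CD103+CD11b-, 5.60, 5.97 and 6.01 in CD103+CD11b+, and 5.38, 5.88 and 5.76 in CD103-CD11b+ cells of DSS experiments 4, 5 and 6. It read 6.55, 6.88 and 6.65 in CD103+CD11b-, 6.15, 5.45 and 5.58 in CD103+CD11b+, and 5.91, 5.53 and 5.57 in CD103-CD11b+ cells of untreated experiments 1, 2 and 3. No CD103+CD11b- array overlapped with another subset, while the CD11b+ subsets overlapped each other in both conditions. CD103+CD11b- cells were 2.03-fold above CD103-CD11b+ cells both with DSS (adjusted p = 0.000944) and untreated (adjusted p = 0.000853). They were 1.79-fold above CD103+CD11b+ cells with DSS (adjusted p = 0.0072) and 1.95-fold untreated (adjusted p = 0.0020). The DSS call of 0.84 over CD103+CD11b+ cells became 0.71 (adjusted p = 0.056) without the DSS CD103+CD11b+ array of experiment 4. Jak2 means were 10.73 ± 0.03 in CD103+CD11b-, 10.48 ± 0.16 in CD103+CD11b+ and 10.27 ± 0.19 in CD103-CD11b+ cells with DSS (first minus last 0.46 ± 0.12, adjusted p = 0.024). Untreated they were 10.70 ± 0.06 in CD103+CD11b-, 10.56 ± 0.01 in CD103+CD11b+ and 10.14 ± 0.15 in CD103-CD11b+ cells (first minus last 0.56 ± 0.12, adjusted p = 0.0055). Jak2 was not called between CD103+CD11b- and CD103+CD11b+ cells in either condition (adjusted p = 0.38 with DSS and 0.62 untreated). The Jak2 call with DSS ended in 5 of 6 cases when 1 array was left out (adjusted p up to 0.15), and the untreated call held in each.

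Ptpn22, a phosphatase of antigen-receptor signalling in lymphocytes that myeloid cells also express, read 6.59, 6.58 and 6.44 in CD103+CD11b-, 5.80, 5.98 and 6.30 in CD103+CD11b+, and 5.82, 6.05 and 5.88 in CD103-CD11b+ cells of DSS experiments 4, 5 and 6. It read 6.55, 6.42 and 6.30 in CD103+CD11b-, 5.38, 5.59 and 6.02 in CD103+CD11b+, and 5.83, 5.84 and 5.78 in CD103-CD11b+ cells of untreated experiments 1, 2 and 3. The CD103+CD11b- arrays were the highest of their condition without overlap. They exceeded CD103-CD11b+ cells by 0.62 ± 0.16 with DSS (adjusted p = 0.015) and 0.61 ± 0.16 untreated (adjusted p = 0.016), and CD103+CD11b+ cells by 0.51 ± 0.16 with DSS (adjusted p = 0.067) and 0.76 ± 0.16 untreated (adjusted p = 0.0034). The third of these was called without the DSS CD103+CD11b+ array of experiment 6 (0.64, adjusted p = 0.031). The first ended in 4 of 6 cases when 1 array was left out (adjusted p up to 0.068), and the second ended without the untreated CD103+CD11b- array of experiment 1 (0.54, adjusted p = 0.074).

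Stat3, the transcription factor below interleukin 6 and interleukin 10 receptors, ran the other way in untreated arrays. Its mean was 10.09 ± 0.03 in untreated CD103+CD11b- and 10.46 ± 0.03 in untreated CD103+CD11b+ cells, a difference of -0.37 ± 0.11 (adjusted p = 0.040) that was lost with the experiment as a block (adjusted p = 0.057) and without any 1 of the 6 arrays (adjusted p up to 0.11). With DSS the means were 10.13 ± 0.14 and 10.41 ± 0.02 and were not called apart (adjusted p = 0.15). Socs1, an inhibitor of JAK kinases, was higher in DSS CD103+CD11b- than in DSS CD103-CD11b+ cells by 0.49 ± 0.14 (adjusted p = 0.038; 0.057 with the experiment as a block), a call that 4 of 6 left-out arrays ended (adjusted p up to 0.22). Ptpn2, another phosphatase of this chain, was not called in any subset comparison. Its second probe set gave differences of opposite sign in several of them, for instance -0.32 against 0.04 in DSS CD103+CD11b- minus DSS CD103-CD11b+ cells, so its direction is uncertain.

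Other genes of the JAK-STAT and interleukin 10 pathway were called in both directions in CD103+CD11b- cells. Of 23 tested, 2 were higher and 4 lower than in CD103+CD11b+ cells with DSS, and 1 was higher and 5 lower untreated, where 5.96% and 6.86% of all genes were called. Stat4, a STAT of interleukin 12 signalling, differed by -1.58 with DSS and -1.67 untreated, and Socs2, a cytokine feedback inhibitor, by -1.35 and -1.45. Stat5a, a STAT below the interleukin 2 receptor, differed by -0.70 with DSS and -1.08 untreated. The list's median difference was 0.10 with DSS and -0.08 untreated, beside 0.00 and -0.06 over all genes.

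The TNF superfamily members showed no called subset difference. Tnfsf15, the ligand also called TL1A, had array levels between 3.41 and 4.36 and lay above the filter level in 17 of 18 arrays. Tnfsf8, the CD30 ligand, ran between 3.99 and 4.63. Tnfrsf14, the herpesvirus entry mediator and partner of Btla, ran between 6.03 and 7.45. Of 14 related genes tested, 2 were higher and 2 lower in the CD103+CD11b- than in the CD103+CD11b+ subset in both conditions, where 5.96% of all genes were called with DSS and 6.86% untreated. Btla, an inhibitory receptor that binds Tnfrsf14, was higher by 1.14 with DSS and by 1.14 untreated, and Tnfsf4, the OX40 ligand, differed by -1.66 with DSS and -1.86 untreated.

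**Figure D2:**
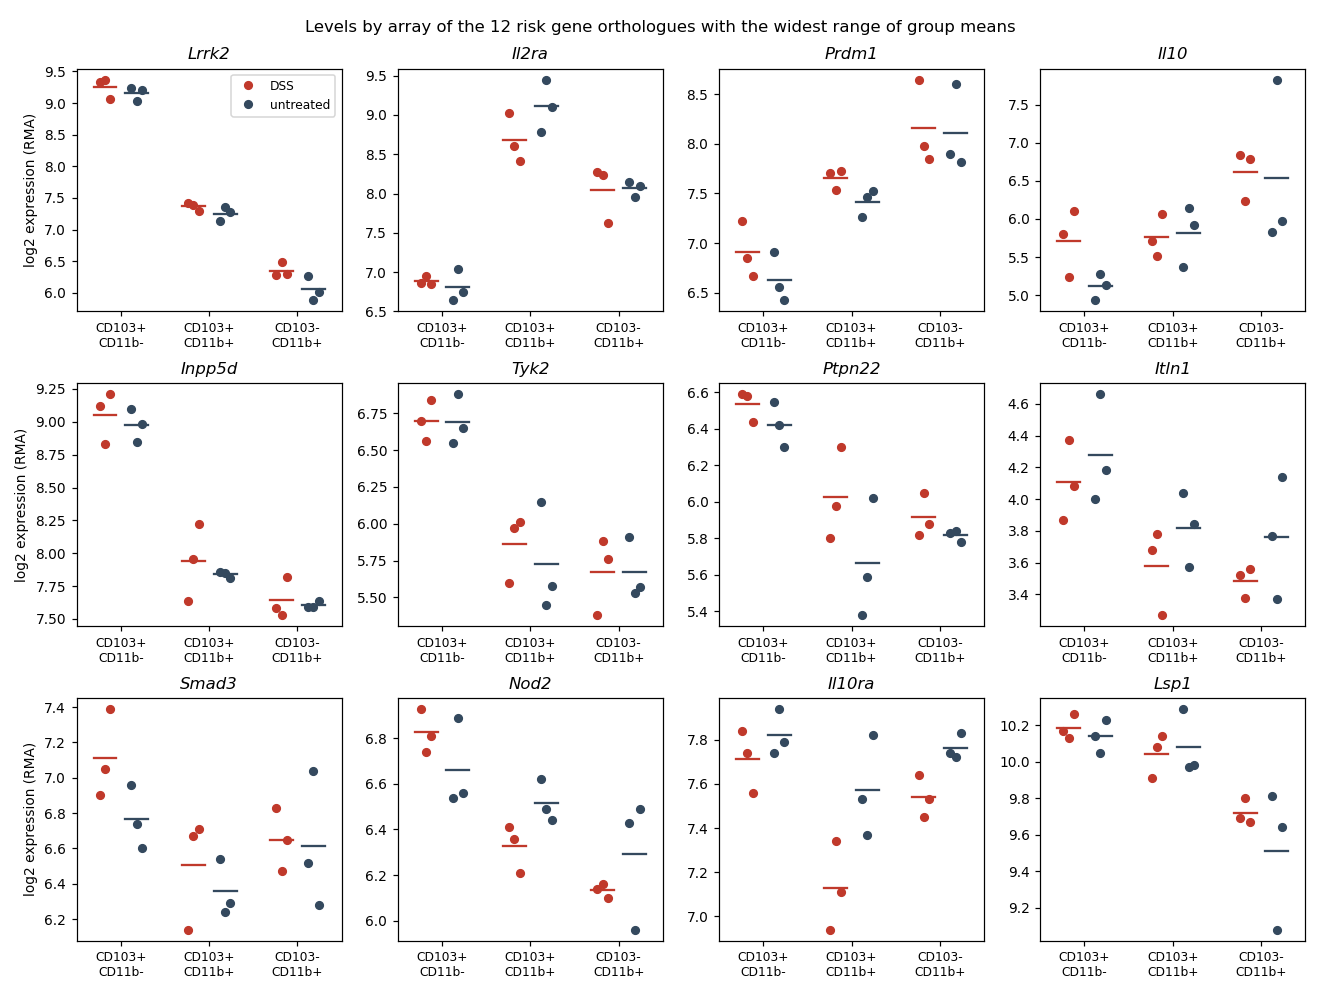
Log2 expression of the 12 members with the widest range of group means, 1 point per array and a bar at the mean of each group, with DSS (red) left of untreated (dark) in each subset. Lrrk2 steps down across the subsets, Il2ra is lowest in CD103+CD11b- arrays, and 1 untreated CD103-CD11b+ array stands at 7.83 for Il10.

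Of the transcription and chromatin regulators, Prdm1 changed with the subset in both conditions. It encodes Blimp-1, a repressor in plasma cells, T cells and dendritic cells. Prdm1 read 7.22, 6.85 and 6.67 in CD103+CD11b-, 7.71, 7.54 and 7.73 in CD103+CD11b+, and 8.65, 7.98 and 7.85 in CD103-CD11b+ cells of DSS experiments 4, 5 and 6. It read 6.91, 6.56 and 6.42 in CD103+CD11b-, 7.26, 7.46 and 7.53 in CD103+CD11b+, and 7.90, 8.61 and 7.82 in CD103-CD11b+ cells of untreated experiments 1, 2 and 3. The 3 subsets stood in the same order without overlap in both conditions, CD103+CD11b- lowest. CD103+CD11b- cells were 2.37-fold below CD103-CD11b+ cells with DSS (log2 difference -1.25 ± 0.22, adjusted p = 0.000704) and 2.79-fold below untreated (-1.48 ± 0.22, adjusted p = 9.91e-05). Without the untreated CD103-CD11b+ array of experiment 2 the second was -1.24 (adjusted p = 0.000779). Against CD103+CD11b+ cells the difference was -0.75 ± 0.22 with DSS (adjusted p = 0.052; 0.028 with the experiment as a block) and -0.79 ± 0.22 untreated (adjusted p = 0.033). The last call ended in 5 of 6 cases when 1 array was left out, with adjusted p up to 0.15. The macrophage sum ran in the same order over the subsets, though not every gene of its list did, such as Cd163. Its part in the Prdm1 result, that of the sum, was not tested.

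Smad3, which carries TGF-beta signals, read 6.90, 7.05 and 7.39 in CD103+CD11b-, 6.14, 6.67 and 6.71 in CD103+CD11b+, and 6.83, 6.47 and 6.65 in CD103-CD11b+ cells of DSS experiments 4, 5 and 6. It read 6.96, 6.74 and 6.60 in CD103+CD11b-, 6.54, 6.24 and 6.29 in CD103+CD11b+, and 6.52, 7.04 and 6.28 in CD103-CD11b+ cells of untreated experiments 1, 2 and 3. The highest mean was in CD103+CD11b- cells in both conditions, and no difference was called. The nearest was 0.61 ± 0.20 over CD103+CD11b+ cells with DSS (adjusted p = 0.083). Sp140, a chromatin reader of leukocytes, was higher in untreated CD103+CD11b- cells, at 7.84 ± 0.34, than in untreated CD103-CD11b+ cells, at 7.16 ± 0.28. That difference of 0.68 ± 0.21 (adjusted p = 0.044) was lost without any of 4 arrays, most of all the untreated CD103+CD11b- array of experiment 3 (0.49, adjusted p = 0.22). Over untreated CD103+CD11b+ cells Sp140 differed by 0.65 (adjusted p = 0.070; 0.020 with the experiment as a block), and with DSS its differences were 0.27 from CD103-CD11b+ and 0.06 from CD103+CD11b+ cells. Ikzf1, Ikzf3, Ets1, Bach2, Zmiz1 and Hnf4a were called in no subset comparison. The ranges of their 6 group means ran from 0.22 for Ets1, a lymphoid regulator, to 0.54 for Ikzf1, which encodes Ikaros.

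Receptor-proximal signalling gave a further clear subset gene in Inpp5d. It encodes SHIP1, a lipid phosphatase that limits phosphoinositide 3-kinase signalling in blood cells. Inpp5d read 9.12, 8.83 and 9.21 in CD103+CD11b-, 7.64, 7.96 and 8.22 in CD103+CD11b+, and 7.58, 7.53 and 7.82 in CD103-CD11b+ cells of DSS experiments 4, 5 and 6. It read 9.10, 8.85 and 8.98 in CD103+CD11b-, 7.86, 7.85 and 7.81 in CD103+CD11b+, and 7.59, 7.59 and 7.64 in CD103-CD11b+ cells of untreated experiments 1, 2 and 3. CD103+CD11b- arrays stood above all others in both conditions. They were 2.65-fold above CD103-CD11b+ cells with DSS (1.40 ± 0.15, adjusted p = 1.81e-06) and 2.59-fold untreated (1.37 ± 0.15, adjusted p = 1.73e-06). Against CD103+CD11b+ cells they were 2.16-fold higher with DSS (adjusted p = 4.48e-05) and 2.20-fold untreated (adjusted p = 3.02e-05). These 4 calls held in every alternative run, and the CD11b+ subsets were not called apart.

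Lsp1, an actin-binding protein of leukocytes, was lowest in untreated CD103-CD11b+ cells. It read 10.17, 10.13 and 10.26 in CD103+CD11b-, 9.91, 10.08 and 10.14 in CD103+CD11b+, and 9.69, 9.80 and 9.67 in CD103-CD11b+ cells of DSS experiments 4, 5 and 6. It read 10.14, 10.05 and 10.23 in CD103+CD11b-, 10.29, 9.97 and 9.98 in CD103+CD11b+, and 9.81, 9.08 and 9.64 in CD103-CD11b+ cells of untreated experiments 1, 2 and 3. CD103-CD11b+ arrays lay below both other subsets in each condition, and the 9.08 of experiment 2 was the lowest array. CD103+CD11b- exceeded CD103-CD11b+ cells by 0.46 ± 0.16 with DSS (adjusted p = 0.078; 0.047 with the experiment as a block) and by 0.63 ± 0.16 untreated (adjusted p = 0.011). Untreated CD103+CD11b+ cells exceeded untreated CD103-CD11b+ cells by 0.57 ± 0.16 (adjusted p = 0.044). Without the untreated CD103-CD11b+ array of experiment 2 the untreated differences were 0.42 (adjusted p = 0.068) and 0.36 (adjusted p = 0.20). The first was also lost without the untreated CD103+CD11b- array of experiment 3 (0.59, adjusted p = 0.051), and the second was lost in 5 of 6 cases when 1 array was left out.

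Cul2, the scaffold of an E3 ubiquitin ligase, was lower in untreated CD103-CD11b+ cells, at 5.57 ± 0.05, than in untreated CD103+CD11b-, at 5.99 ± 0.14, and CD103+CD11b+ cells, at 6.02 ± 0.08. The differences of 0.42 ± 0.12 (adjusted p = 0.029) and 0.45 ± 0.12 (adjusted p = 0.040) were lost in 5 and in 6 of 6 cases when 1 array was left out (adjusted p up to 0.12 and 0.13). The second was also lost with the experiment as a block (adjusted p = 0.051). Plcg2, a phospholipase of antigen and Fc receptor signalling, Rasgrp1, an activator of Ras, and Ndfip1, an adaptor of ubiquitin ligases, were called in no subset comparison. Plcg2 had the narrowest range of group means of all members, 0.19.

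In the last group of genes, Dap, which encodes a death-associated protein, was lower in untreated CD103+CD11b- cells, at 7.63 ± 0.10, than in untreated CD103+CD11b+ cells, at 8.18 ± 0.17, and untreated CD103-CD11b+ cells, at 8.11 ± 0.09. The differences were -0.55 ± 0.14 (adjusted p = 0.022) and -0.49 ± 0.14 (adjusted p = 0.036), and both were lost when some single arrays were left out, in 4 and in 5 of 6 cases (adjusted p up to 0.11 and 0.14). Ormdl3, a regulator of sphingolipid synthesis, differed by -0.50 ± 0.20 between untreated CD103+CD11b- and untreated CD103-CD11b+ cells (adjusted p = 0.15), and by -0.78 (adjusted p = 0.0084) without the CD103-CD11b+ array of experiment 2. Itln1 and Fut2 are best known from epithelium, as a lectin for microbial glycans and an enzyme of mucosal fucosylation.

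Itln1 read 3.87, 4.37 and 4.08 in CD103+CD11b-, 3.68, 3.78 and 3.27 in CD103+CD11b+, and 3.52, 3.38 and 3.56 in CD103-CD11b+ cells of DSS experiments 4, 5 and 6. It read 4.0, 4.66 and 4.18 in CD103+CD11b-, 4.04, 3.57 and 3.84 in CD103+CD11b+, and 3.77, 3.37 and 4.14 in CD103-CD11b+ cells of untreated experiments 1, 2 and 3. These levels lay near the filter level of 3.51, which 15 of the 18 arrays passed, and CD103+CD11b- means were the highest. Neither the difference from CD103-CD11b+ cells with DSS, 0.62 ± 0.21 (adjusted p = 0.076), nor that untreated, 0.52 ± 0.21 (adjusted p = 0.14), was called. Without the untreated CD103-CD11b+ array of experiment 3 the untreated difference was 0.71 (adjusted p = 0.046). Fut2 ran between 5.59 and 6.82, and Hnf4a, a nuclear receptor of epithelium named above, between 5.78 and 6.88. The epithelial sum was 12.13 to 12.51 in DSS CD103+CD11b-, 12.54 to 12.63 in DSS CD103+CD11b+ and 12.36 to 12.67 in DSS CD103-CD11b+ arrays, and its part in the levels of these genes was not tested.

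The subset differences of the members were similar with and without DSS, in arrays that share no sample. Across the 38 members the log2 differences in DSS and in untreated arrays had a Pearson correlation of 0.955 for CD103+CD11b- minus CD103-CD11b+, 0.919 for CD103+CD11b- minus CD103+CD11b+ and 0.822 for CD103+CD11b+ minus CD103-CD11b+ cells. Over all 14003 genes tested these were 0.819, 0.744 and 0.542. Genes are not independent replicates, and a few members with large differences weigh heavily, as Spearman's rho was 0.865, 0.831 and 0.677 over the same 38. Of the members called untreated, all had the same sign with DSS, 13 of 13, 9 of 9 and 4 of 4, and 7, 4 and 1 of them were called there too. That is 53.8%, 44.4% and 25.0% of these members, against 61.1%, 58.1% and 27.3% of all genes called untreated. Within single experiments, CD103+CD11b- cells stood on the same side of CD103-CD11b+ cells in all 6 for 18 members (20.3% of all genes), and of CD103+CD11b+ cells for 16 (17.3%). CD103+CD11b+ cells stood on the same side of CD103-CD11b+ cells in all 6 for 13 members (11.3%).

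**Figure D3:**
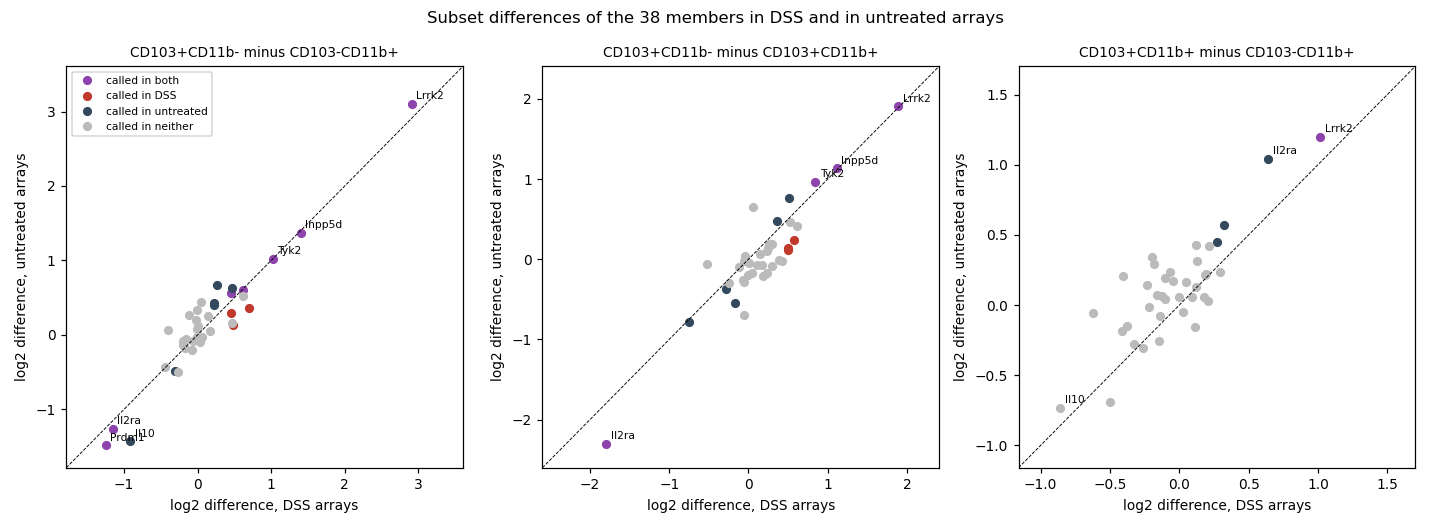
Log2 subset difference of each member in DSS arrays (x axis) against that in untreated arrays (y axis), 1 panel per pair of subsets and 1 point per member, with the line of equal values; colour tells in which condition a member was called. Lrrk2, Inpp5d and Tyk2 lie at the upper right and Il2ra at the lower left of the first 2 panels, close to the line.

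DSS changed no member past the threshold. In CD103+CD11b- cells 0 of 38 were called by limma (0.129% of all genes were), with 2 at an unadjusted p under 0.05 (6.08% of all genes). In CD103+CD11b+ cells 0 were called (0.0857% of all), with 8 at an unadjusted p under 0.05, 1 higher and 7 lower (10.1% of all). In CD103-CD11b+ cells 0 were called (0.1% of all), with 4 at an unadjusted p under 0.05, 3 higher and 1 lower (7.67% of all). Over all subsets, on 1 mean per experiment, 0 were called (0.186% of all), with 8 at an unadjusted p under 0.05, 2 higher and 6 lower (10.5% of all). The other settings run, with the experiment as a random block among them, also called 0. The threshold was not out of reach for every gene: Clec4e, a lectin receptor of the CARD9 list, rose by 1.77 with DSS in CD103+CD11b- cells (adjusted p = 0.017).

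The precision of the differences between DSS and untreated arrays can be read from 95% intervals, not adjusted for the number of genes. They reflect only how these arrays vary. As DSS and the experiments cannot be told apart, they set no bound on an effect of DSS. They stayed within a log2 change of 1 in either direction for 37 of 38 members in CD103+CD11b-, 37 in CD103+CD11b+ and 38 in CD103-CD11b+ cells. The exceptions were Il10 in CD103+CD11b- cells, with 0.60 and an upper bound of 1.38, and Tnfrsf14 in CD103+CD11b+ cells, with -0.62 and a lower bound of -1.07. Tnfrsf14 arrays of that subset lay at 6.03, 6.26 and 6.64 in DSS experiments 4, 5 and 6 and at 7.11, 6.74 and 6.93 in untreated experiments 1, 2 and 3, without overlap (adjusted p = 0.34). Ptpn2 had the largest rise in CD103-CD11b+ cells, 0.51 ± 0.16, at 8.55, 8.23 and 7.94 with DSS and 7.83, 7.81 and 7.53 untreated (adjusted p = 0.36). Its other probe set gave 0.61 there. Within CD103+CD11b+ cells Il10ra differed by -0.44 ± 0.14 and Ifngr2 by -0.36 ± 0.11 between DSS and untreated arrays (adjusted p = 0.28 for each), and neither gene's groups overlapped.

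The direction of the DSS difference was above 0 in all 3 subsets for 9 members, below 0 in all 3 for 8 and mixed for 21. The matching shares over all genes were not computed. DSS and untreated arrays did not overlap for 5 members in CD103+CD11b- (12.3% of all genes), 14 in CD103+CD11b+ (15.5%) and 9 in CD103-CD11b+ cells (11.5%). No difference between subsets in the DSS change was called for any member, nor for any gene tested, so that 0% of all genes were called in each of the 3 comparisons. At an unadjusted p under 0.05 stood 0 members for CD103+CD11b- against CD103-CD11b+, 1 for CD103+CD11b- against CD103+CD11b+ and 3 for CD103+CD11b+ against CD103-CD11b+ cells, where 3.64%, 4.83% and 5.56% of all genes did. Neutrophil genes had sums of 8.44 to 9.99 in DSS and 7.58 to 8.69 in untreated arrays, without overlap in the CD103+ subsets and with a slight one in CD103-CD11b+ cells (11 genes, of which Cxcr2, Mmp8, Camp, Ltf and Ngp had means below the filter level), and their part in the members' values was not tested.

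**Figure D4:**
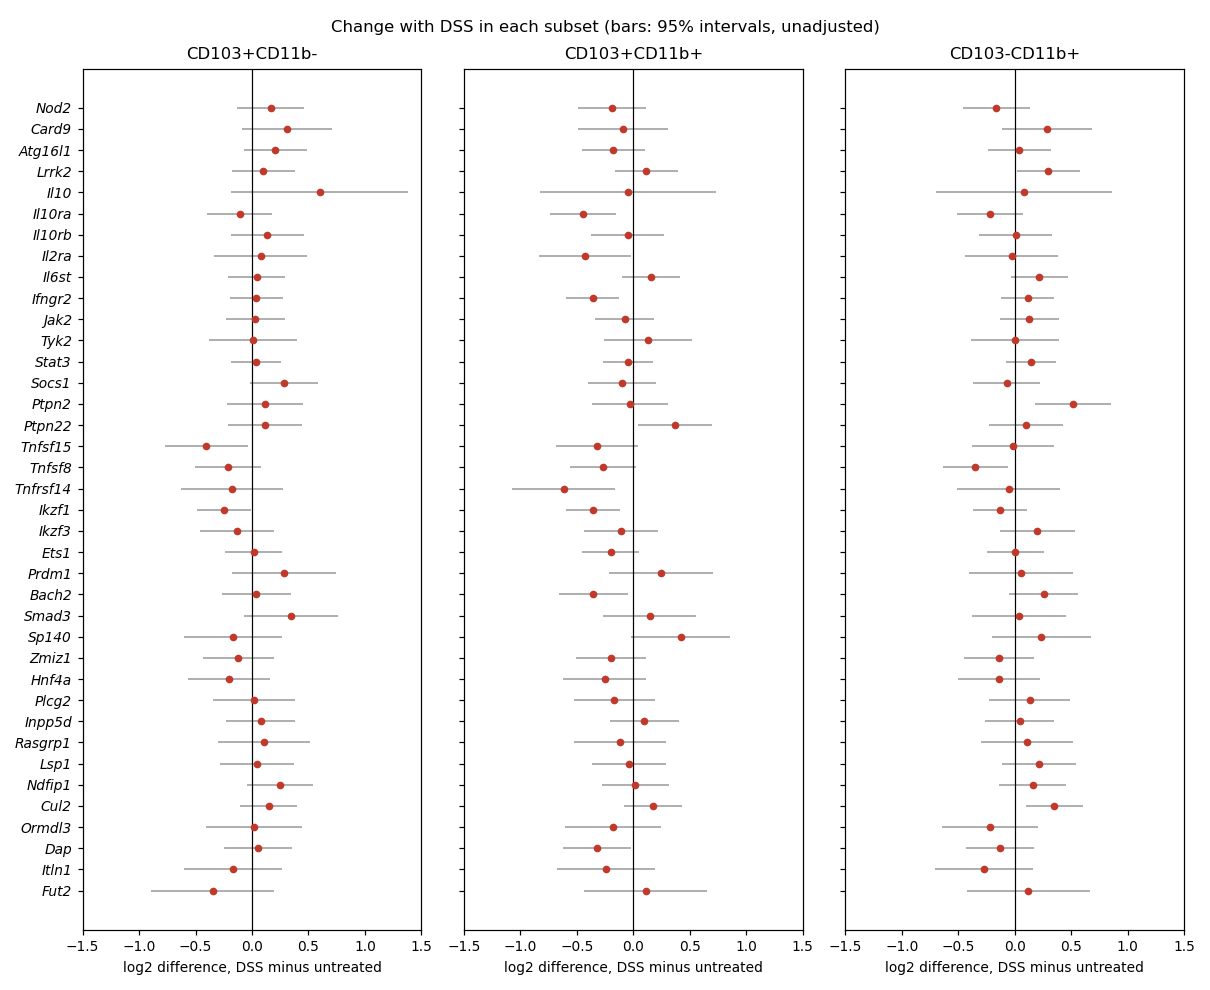
Log2 difference between DSS and untreated arrays for each member (points) with its 95% interval, not adjusted for the number of genes (bars), in 1 panel per subset. Most points lie within 0.5 of the line at 0, and the widest bars, to 1.38 in CD103+CD11b- cells, belong to Il10.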

How the data were processed

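Expression was measured on 18 arrays from 5 ng of amplified total RNA each. The deposited table holds log2 expression values per probe set, made by the authors with RMA per the submitters' processing notes, with no version given; the values were used as deposited. RMA corrects background and normalizes by quantiles, so a shift shared by most genes would be removed, and neither step could be undone here. Of 34760 probe sets, 21640 carried 1 gene symbol, 1321 several and 11799 none. The platform annotation gave the names, and 21553 of the 21640 matched the RefSeq gene table by gene identifier. Of several probe sets of a gene, the one with the highest mean was used; 3 members had several. Genes were kept for testing, 14003 in all, where at least 3 arrays exceeded 3.51, which is the 40th percentile of the whole table.

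A linear model with a mean for each group was fitted to all arrays (limma 3.58.1, under R 4.3.3). The 13 comparisons were two-sided and Benjamini-Hochberg adjusted over all genes tested, and called at an adjusted p under 0.05. DSS over all subsets was fitted on 1 mean for each of 6 experiments. Errors of differences are standard errors, and those of means are SDs. The fit was tested on simulated data. Titles name the experiment, which was taken to pair the subsets of a condition: residuals of arrays sharing a number correlated above 0.1 in 9 of 9 pairs with DSS (0.11 to 0.31) and in 8 of 9 untreated (-0.03 to 0.32). Blocked values stand beside results whose call they change.

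The members and lists were chosen with earlier results of these data known. Array values are given for the 12 members with the widest range of group means, ranges or group means for the others, and, from pathway lists, at most 4 called genes with the largest differences; array values of Tnfrsf14 and Ptpn2 were added after their values were seen. Promoters came from a RefSeq table for GRCm38.p6. Alternatives were the block, no filter, renewed quantile normalization, a trended robust fit, the mean of probe sets, only the groups compared, and leaving out each array.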

Additional observations from a re-analysis of the deposited data

How the results depend on the processing

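Over 31 other settings, 24 of which leave out 1 array or experiment, no member difference called in any setting reversed its direction. The directions of differences called in no setting were not followed. Of the 44 member calls in subset comparisons, 23 held in every setting, 21 were lost in at least 1, 5 of them only when an array was left out, and 4 were lost with the experiment as a replicate block, which changed the called members to 11, 7 and 1 with DSS and 13, 9 and 3 untreated (CD103+CD11b- against CD103-CD11b+, CD103+CD11b- against CD103+CD11b+, and CD103+CD11b+ against CD103-CD11b+ cells). Fitted on only the groups compared, with fewer arrays behind the spread, the untreated counts of the first and the last comparison were 7 and 2. Leaving out 1 array gave 6 to 8, 3 to 6 and 1 to 1 members with DSS in that order, and 8 to 11, 5 to 7 and 2 to 3 untreated. Members with a single highest subset numbered 2 to 5 with DSS and 5 to 6 untreated when 1 array was left out. Counts for DSS against untreated cells and for the differences between subsets in that change were 0 to 0 throughout; with the experiment as a random replicate block (consensus correlation 0.06) they were 0 as well. Background correction could not be varied, and signal over background is unknown, as the values carry no detection calls.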

Other observations

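A further list of 32 orthologues of inflammatory bowel disease risk genes, of which 31 were tested, also differed between the subsets. In the CD103+CD11b- against the CD103-CD11b+ subset 5 were higher and 3 lower with DSS, and 8 were higher and 4 lower untreated (8.53% and 10.3% of all genes were called). Il12b, the shared chain of interleukins 12 and 23, was higher in CD103+CD11b- cells by 1.59 with DSS and by 2.41 untreated on the log2 scale. Osm, a cytokine of the interleukin 6 family, fell by 1.78 with DSS and by 2.36 untreated, and Fcgr2b, the inhibitory Fc receptor, fell by 1.51 and by 1.79. Irf8, a transcription factor of cDC1 cells that is also in the cDC1 marker list, was higher by 0.96 with DSS and by 1.29 untreated.

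In the CD103+CD11b- against the CD103+CD11b+ subset 5 of the 31 were higher and 4 lower with DSS, and 4 were higher and 6 lower untreated (5.96% and 6.86% of all genes). Il18rap, a chain of the interleukin 18 receptor, was lower in CD103+CD11b- cells, by 1.42 among DSS arrays and by 2.23 among untreated arrays. The CD11b+ subsets also differed: Ccr6, a chemokine receptor, exceeded its CD103-CD11b+ level in the CD103+CD11b+ subset by 1.05 with DSS and by 1.05 untreated. Osm lay below its CD103-CD11b+ level in the CD103+CD11b+ subset, by 1.30 among DSS arrays and by 0.95 among untreated arrays.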
